A study of Mus musculus with 8 samples.

Results

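The genes described here are 41 transcripts of aminoacyl-tRNA synthetases and of the ATF4 stress response in NIH3T3 cells, a mouse fibroblast line. They comprise 19 genes of cytosolic synthetases, 6 of stress transcription factors and regulators, 8 of amino acid and one-carbon synthesis, 2 of an amino acid transporter, and 6 of stress effectors and secreted or surface proteins. The genes were chosen by symbol for their role, with earlier results of these data known, and not by a threshold on these values. Where a symbol had 2 rows, as Ddit3 did, the row with the higher mean count was taken. All 41 were found among the 78298 rows of the deposited table, and all 41 were among the 17128 rows with enough counts to be tested.

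Wild-type NIH3T3 cells were given vehicle or Mic-628 for 1 day, and poly(A) RNA was sequenced from 4 libraries of each group. Mic-628 is the Period1 inducer of the series title, and its dose and the vehicle's composition are not given in the sources used here. Batches numbered 1 to 4 are stated, each with 1 vehicle and 1 Mic-628 library. Whether the libraries of a group stem from different cultures is not stated, and the p-values therefore rest on a spread that could be purely technical. A single established line stands for the fibroblast in both groups.

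Aminoacyl-tRNA synthetases join each amino acid to its tRNA, and several of them sit together in a multisynthetase complex. When amino acids run short, when proteins misfold in the endoplasmic reticulum or under other stresses, kinases phosphorylate the translation factor eIF2. General translation then slows, while the mRNA of the transcription factor ATF4 is translated more. ATF4 binds C/EBP-ATF response elements and raises genes of amino acid uptake, amino acid synthesis and tRNA charging, and with prolonged stress it raises the pro-apoptotic factor CHOP, encoded by Ddit3. ATF4 itself is controlled largely through translation, so its mRNA level need not follow its protein.

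The sequences below show where the letters of the ATF4 response element occur near the start of some of these genes. They are stretches of promoters from RefSeq on build GRCm38.p6, each read 5′ to 3′ on the gene's strand and lying wholly before the gene's start. Capitals mark the core of the C/EBP-ATF response element, TGATGNAA, or TTNCATCA where it lies on the opposite strand.
Asns: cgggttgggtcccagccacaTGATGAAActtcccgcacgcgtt
Pycr1: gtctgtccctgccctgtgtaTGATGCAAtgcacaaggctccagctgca
Chac1: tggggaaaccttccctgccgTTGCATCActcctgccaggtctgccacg
Nupr1: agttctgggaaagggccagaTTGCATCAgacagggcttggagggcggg
Aars1: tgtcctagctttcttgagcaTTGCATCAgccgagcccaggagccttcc
Gars1: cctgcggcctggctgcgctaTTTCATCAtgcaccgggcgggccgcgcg
Tars1: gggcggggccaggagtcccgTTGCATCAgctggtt

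On GRCm38.p6 these lie at chr6:7693210-7693252 (minus strand) for Asns, chr11:120643824-120643871 (minus) for Pycr1 and chr2:119351029-119351076 (plus) for Chac1. The stretch of Nupr1 is chr7:126625553-126625600 (minus), that of Aars1 chr8:111033710-111033757 (plus), that of Gars1 chr6:55037951-55037998 (plus) and that of Tars1 chr15:11399659-11399693 (minus). A promoter window of 300 bases, 250 before the start and 50 after, was matched for 32 of the 41 genes. The element was present on either strand in 12 of these 32 genes (37.5%), against 1219 of 27025 genes (4.51%) with a window in the same table. Those 12 were the 7 above together with Iars1, Yars1, Trib3, Fgf21 and Vldlr. In Fgf21 and Vldlr the element also lay before the gene's start, though their stretches are not printed here. In Iars1, Yars1 and Trib3 it lay after the start. A match of letters is not a bound site, and a window without one does not show that the factor binds nowhere near the gene. All other coordinates here are those of the deposited table on mm39.

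The libraries held 18.1 M to 23.2 M counts on the listed transcripts (M, mega). All 9 fibroblast markers examined were above 1 FPKM (fragments per kilobase of exon and per M fragments), with Vim, Fn1 and Col1a2 among them. Their summed level was 5080 to 5259 FPKM with vehicle and 4431 to 4548 FPKM with Mic-628. Most of that difference lay in Vim (means of 2127 and 1831 FPKM) and Fn1 (1599 and 1320 FPKM). Lower means were also found for Col1a2 (481.2 and 437.7 FPKM), S100a4 (653.6 and 610 FPKM) and Col3a1 (15.01 and 10.09 FPKM). Thy1 had 171.5 and 171.9 FPKM, Col1a1 80.0 and 79.75 FPKM, Pdgfra 8.62 and 8.80 FPKM and Pdgfrb 17.1 and 17.2 FPKM. The part of the difference in summed level in the results below was not tested. Markers of epithelium, endothelium and muscle stayed under 1 FPKM in every library, as did Ptprc and Lyz2, and Adgre1, Myod1, Myog and Adipoq were listed at 0. Cd68 alone among the leukocyte markers was above that, at 6.36 to 7.69 FPKM, and of the adipocyte markers Fabp4 reached 1.06 FPKM in 1 library. In the same libraries Per1, the clock repressor gene that the compound is said to induce, went from 4.31 ± 0.235 to 24.9 ± 1.17 FPKM (SD, n = 4 each), which was 5.79-fold. That gives a scale for the sizes below.

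The synthetase and ATF4-response genes were already abundant with vehicle. In the order of mean FPKM over the vehicle libraries, Ddit3 stood first at 549.5, followed by Atf4 at 373, the transporter chain gene Slc3a2 at 325, Atf5 at 280, the glycyl-tRNA synthetase gene Gars1 at 233 and the asparagine synthetase gene Asns at 226. The vehicle ranges of neighbours among these did not overlap. From Wars1 at 87.0 down to Chac1 at 75.4, which covers 10 genes including Lars1, Nupr1 and Slc7a5, each gene's range overlapped that of the next, so neighbours in this stretch were not separated. At the foot of the order were Fgf21 at 2.14 and Vldlr at 1.76 FPKM. The median of the 41 genes was 80.9 FPKM, against 6.48 FPKM for all tested rows. FPKM here divides by the exon length of a single canonical transcript, so a gene that uses other transcripts is placed only roughly.

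**Figure D1:**
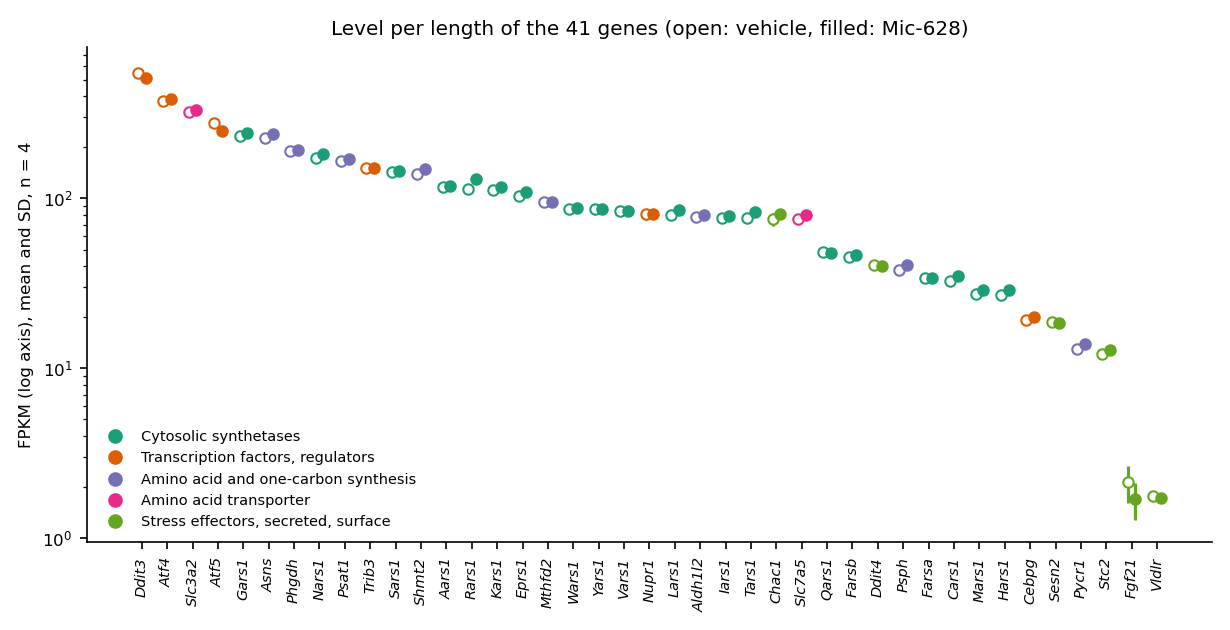
Mean FPKM (log axis) with SD over 4 libraries for each of the 41 genes with vehicle (open) and Mic-628 (filled), ordered by the vehicle mean and coloured by role. Levels run from 549.5 FPKM for Ddit3 to 1.76 FPKM for Vldlr, and open and filled points lie close together for every gene.

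After 1 day of Mic-628 these transcripts stayed close to their vehicle levels. Of the 41 genes, 2 rose, the arginyl- and threonyl-tRNA synthetase genes Rars1 and Tars1, and 1 fell, the transcription factor gene Atf5. The other 38 were not called. Rars1 rose 1.15-fold, Tars1 1.08-fold, and Atf5 fell to 0.895 of its vehicle level. Over all 17128 rows, 4.37% were called at an edgeR adjusted p under 0.05, 2.13% higher and 2.25% lower. The share of these genes called, 3 of 41, is near that background and is not a result about the group.

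The precision was high enough to bound most of the changes that were not called. For 39 of the 41 genes the 95% interval of the fold change lay wholly between a 1.2-fold rise and a 1.2-fold fall, and for 23 it lay within 1.1-fold. Among all tested rows, whose median level was lower, 9670 of 17128 intervals lay within 1.2-fold. The exceptions were Rars1, whose interval reached 1.21-fold, and Fgf21, which encodes a stress-induced hormone and had only 24.5 to 60 counts per library. Fgf21 had 2.40, 1.63, 1.78 and 2.75 FPKM in vehicle libraries 1 to 4 and 1.32, 1.94, 2.14 and 1.36 FPKM in Mic-628 libraries 1 to 4. The groups overlapped, and the interval of 0.607-fold to 1.05-fold was the widest of the 41, so that no change of this size was detectable at this depth.

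**Figure D2:**
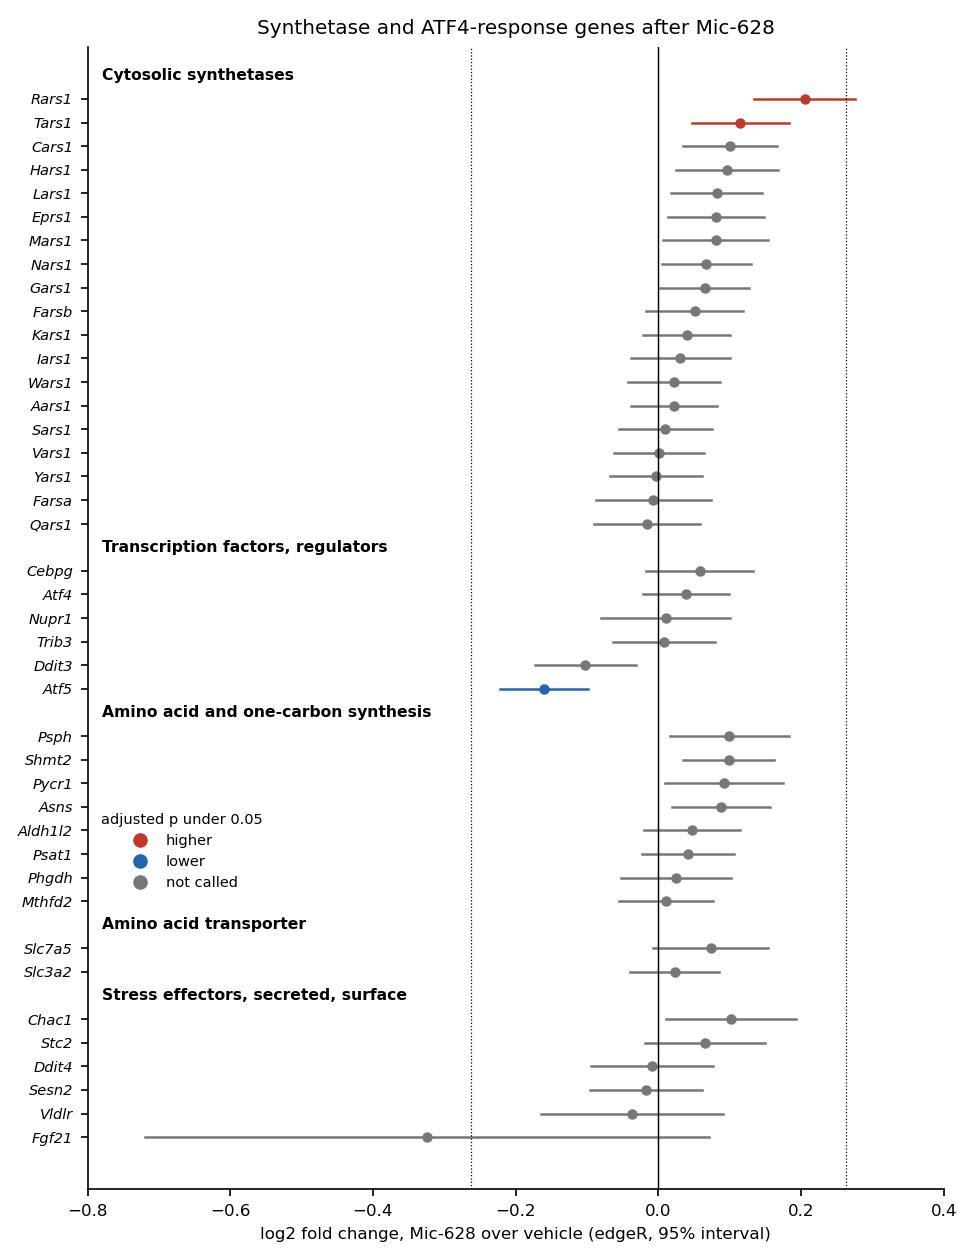
Log2 fold change of Mic-628 over vehicle with its 95% interval for the 41 genes, grouped by role; dotted lines mark a 1.2-fold change either way. Rars1 and Tars1 (red) rose and Atf5 (blue) fell, and apart from those of Rars1 and Fgf21 every interval stays between the dotted lines.

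Among the cytosolic synthetases, 2 of 19 rose, 0 fell and 17 were not called. Over all tested rows 2.13% were called higher and 2.25% lower. So small a count is not read as a result about the family. Rars1 (transcript ENSMUST00000018992.4, chromosome 11, 35699208 to 35725333, minus strand) encodes the arginyl-tRNA synthetase, a member of the multisynthetase complex. It had 115, 109, 115 and 116 FPKM in vehicle libraries 1 to 4 and 138, 126, 131 and 129 FPKM in Mic-628 libraries 1 to 4. All 4 Mic-628 libraries were above all 4 vehicle libraries, with Mic-628 library 1 the highest. On the log2 scale the rise was 0.21 (SE 0.034, edgeR adjusted p = 0.000413). That it was seen in 4 of 4 batch pairs follows from the lack of overlap. Rars1 was called in 23 of 23 alternative analyses, with an adjusted p of 3.18e-07 to 0.0210.

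Tars1 (ENSMUST00000022849.7, chromosome 15, 11382387 to 11399751, minus strand) encodes the threonyl-tRNA synthetase, and its promoter stretch is printed above. Its level was 75.8, 74.8, 77.4 and 77.2 FPKM in vehicle libraries 1 to 4. In Mic-628 libraries 1 to 4 it was 86.5, 80.3, 84.2 and 79.5 FPKM. The groups did not overlap, but Mic-628 libraries 2 and 4 stood close above the vehicle range. Its rise on the log2 scale was 0.12 (SE 0.033; edgeR adjusted p = 0.0444). Under a block on batch the edgeR adjusted p was 0.0732, and Tars1 was called in 11 of 23 alternatives. It was not called without vehicle library 2, 3 or 4 or Mic-628 library 1 or 3, where the edgeR adjusted p was 0.167, 0.0777, 0.0522, 0.149 and 0.151.

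Most of the other synthetases lay slightly above their vehicle level. Of the 19, 16 had a log2 fold change above 0, against 48.4% of all tested rows. An unadjusted p under 0.05 was found for 9, Rars1 and Tars1 included, against 2905 of 17128 tested rows. Log2 fold changes ran from -0.02 for the glutaminyl-tRNA synthetase gene Qars1 to 0.21 for Rars1, with a median of 0.05. Qars1 had 49.0, 47.8, 47.7 and 49.5 FPKM with vehicle and 44.8, 47.5, 48.5 and 50.9 FPKM with Mic-628, so its groups overlapped on both sides. Next to Tars1 in size stood Cars1 (log2 fold change 0.10; edgeR adjusted p = 0.0792) and Hars1 (0.10; 0.132), which charge cysteine and histidine and were not called. Farsa and Farsb encode the subunits of phenylalanyl-tRNA synthetase. Their log2 fold changes were -0.01 and 0.05, neither called, and Farsb had 1.26 to 1.39 times the FPKM of Farsa in the 8 libraries.

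In 7 synthetase genes all 4 Mic-628 libraries lay above all 4 vehicle libraries in CPM (counts per M counts, scaled by TMM). These were Rars1, Tars1, Cars1, Hars1, Lars1, Eprs1 and Kars1. Over all 41 genes this held for 9, with Shmt2 and Pycr1 added, against 5.63% of all tested rows, and the reverse held for Atf5 alone, against 5.07%. The genes described here varied less between libraries of a group than most rows did. The median within-group SD of log2 CPM was 0.0456 for them and 0.0950 for all tested rows. They were also more abundant, with a vehicle median of 80.9 FPKM against 6.48 FPKM, and rows of like level were not compared.

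The log2 ratio of Rars1 to the mean of the other 18 synthetases was taken within libraries, a ratio chosen after the values were seen. Mic-628 libraries averaged 0.23 ± 0.057 and vehicle libraries 0.07 ± 0.039 (SD, n = 4 each), a difference of 0.16. The same ratio for Tars1 differed by 0.06. Because the genes were picked for their change, these ratios are given as a description, with no p-value.

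Among the 6 transcription factors and regulators, 1 fell, 0 rose and 5 were not called. The shares over all tested rows were 2.25% lower and 2.13% higher, and a single call is not a result about this role. Atf5 (ENSMUST00000047356.11, chromosome 7, 44461680 to 44466082, minus strand) encodes a relative of ATF4 that is also translated under eIF2 phosphorylation. It had 289, 279, 276 and 275 FPKM in vehicle libraries 1 to 4 and 247, 251, 255 and 248 FPKM in Mic-628 libraries 1 to 4. Every Mic-628 library was below every vehicle library. The fall on the log2 scale was -0.16 (SE 0.030, edgeR adjusted p = 0.00143). A lower value in 4 of 4 batch pairs follows from the lack of overlap. Atf5 was called in 23 of 23 alternatives, with an adjusted p of 2.26e-06 to 0.0376. The row overlaps Nup62 on the opposite strand by 571 bases, and Nup62, with a log2 fold change of -0.04, was not called.

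Atf4, the central factor, had 377, 370, 369 and 376 FPKM with vehicle and 384, 377, 388 and 384 FPKM with Mic-628. The groups met at their edges, and its log2 fold change was 0.04 (95% interval -0.02 to 0.10; edgeR adjusted p = 0.536). The log2 ratio of Atf5 to Atf4, also chosen after the values were seen, went from -0.34 ± 0.027 to -0.54 ± 0.024 (SD, n = 4 each). The difference was -0.20, given as a description, with no p-value.

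Ddit3, the CHOP gene and the most abundant of the 41 transcripts, had 532, 529, 556 and 582 FPKM in vehicle libraries 1 to 4. With Mic-628 it had 496, 507, 516 and 528 FPKM. It was lower in 4 of 4 batch pairs, yet the highest Mic-628 library and the lowest vehicle library nearly coincided, and the groups overlapped after TMM scaling. Its log2 fold change of -0.10 was not called (SE 0.034; edgeR adjusted p = 0.0989), and it was called in 1 of 23 alternatives, without vehicle library 1 (0.0405). A shorter second Ddit3 row within the first stood at -0.14 on the log2 scale and did not pass either (edgeR adjusted p = 0.169). The main row shares 624 bases with the predicted gene Gm4189 on the opposite strand, so reads of these rows may be mixed.

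Trib3 encodes a pseudokinase that damps ATF4 and CHOP. It had 151, 148, 149 and 155 FPKM with vehicle and 147, 144, 159 and 156 FPKM with Mic-628. The Mic-628 libraries spanned the whole vehicle range, and the log2 fold change was 0.01. Cebpg, whose product pairs with ATF4, had a log2 fold change of 0.06, and Nupr1, a stress-induced chromatin protein gene, 0.01. Neither was called.

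**Figure D3:**
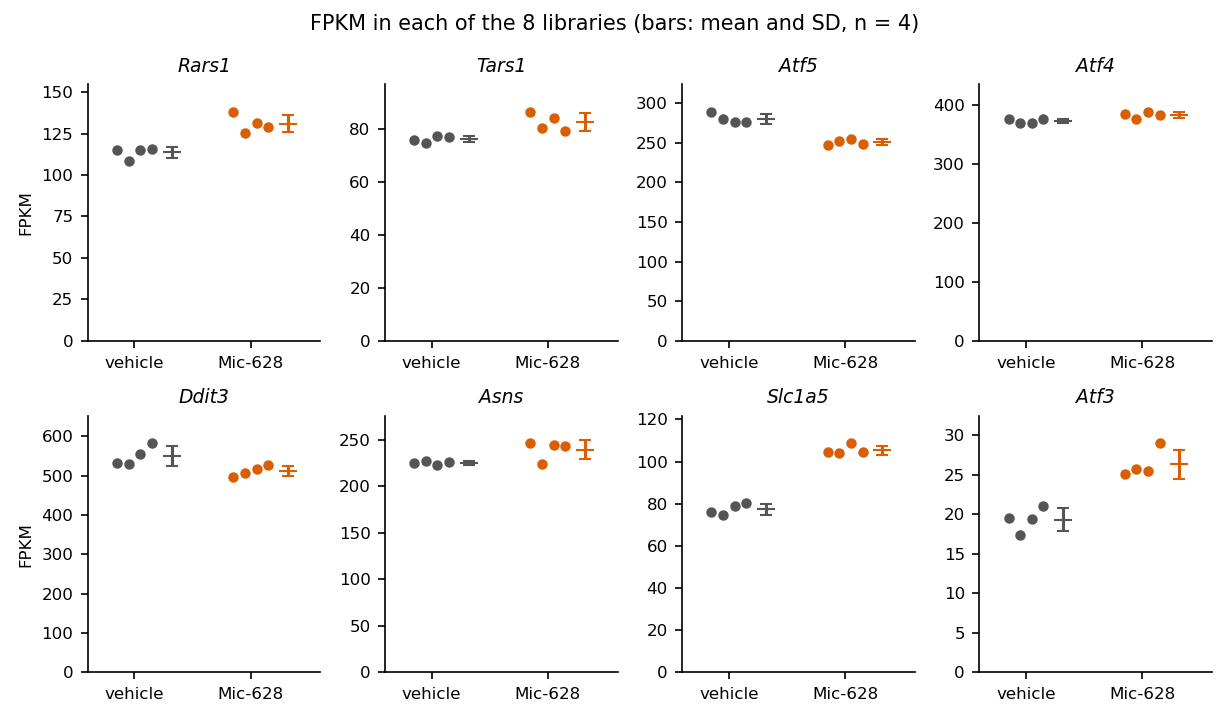
FPKM in each of the 8 libraries (points in the order of replicates 1 to 4) with mean and SD beside them for 6 of the 41 genes and for Slc1a5 and Atf3, each axis starting at 0. The groups separate for Rars1, Tars1, Atf5, Slc1a5 and Atf3, while Mic-628 library 2 of Asns, at 224 FPKM, lies within the vehicle range.

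None of the 8 genes of serine, one-carbon, proline and asparagine synthesis was called by the edgeR test with TMM scaling on all libraries. An unadjusted p under 0.05 was found for 4 of the 8, against 2905 of 17128 tested rows. Shmt2 was called by DESeq2 without the block (adjusted p = 0.0413) and by edgeR scaled on library size alone (0.0490). The log2 fold changes of the 8 genes ran from 0.01 for Mthfd2 to 0.10 for Psph, with a median of 0.07. The Psph row shares 452 bases with the more abundant Cct6a on the opposite strand, so reads of these rows may be mixed. Asns, the classic ATF4 target that makes asparagine, had 225, 228, 223 and 227 FPKM with vehicle and 246, 224, 245 and 243 FPKM with Mic-628. In 3 of the 4 Mic-628 libraries it was above the vehicle range, and in library 2 it was within it. The difference was 0.09 on the log2 scale (SE 0.033; edgeR adjusted p = 0.154), and without Mic-628 library 2 Asns was called at 0.12 (0.0393).

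The serine pathway starts with Phgdh, its first committed enzyme, and continues with Psat1 and Psph. Phgdh had 193, 187, 188 and 188 FPKM with vehicle and 179, 184, 201 and 205 FPKM with Mic-628. Its Mic-628 libraries fell on both sides of the vehicle range, 1 and 2 below and 3 and 4 above (log2 fold change 0.02; edgeR adjusted p = 0.807). Psat1 had 167, 165, 167 and 168 FPKM with vehicle and 176, 164, 175 and 172 FPKM with Mic-628, again with library 2 the lowest of its group (0.04; 0.540). Shmt2 turns serine into glycine and one-carbon units in mitochondria. It was 137 to 143 FPKM with vehicle and 146 to 151 FPKM with Mic-628, without overlap, but did not pass the test (0.10; edgeR adjusted p = 0.0724).

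Slc3a2 and Slc7a5 encode the heavy and light chains of the transporter LAT1, which brings leucine and other large amino acids into the cell. Slc7a5 had 69.9, 74.1, 78.0 and 79.6 FPKM with vehicle and 81.0, 74.9, 82.5 and 79.0 FPKM with Mic-628, with overlap. Between the groups it differed by 0.07 on the log2 scale (edgeR adjusted p = 0.348), and that of Slc3a2 was 0.02 (0.764). The heavy chain had 3.99 to 4.604 times the FPKM of the light chain in the 8 libraries. Slc3a2 also serves other light chains.

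The 6 stress effectors and secreted or surface products held no called gene. In this role 1 gene had an unadjusted p under 0.05, against 2905 of 17128 tested rows. Chac1, which degrades glutathione and is among the most ATF4-dependent transcripts, had 69.97, 71.4, 76.7 and 83.6 FPKM with vehicle and 77.0, 80.0, 83.3 and 83.2 FPKM with Mic-628. Vehicle library 4 exceeded every Mic-628 library. Its difference was 0.10 on the log2 scale (SE 0.044; edgeR adjusted p = 0.229), and without vehicle library 4 it was called at 0.16 (0.0173). Sesn2, a leucine sensor that restrains mTORC1, had 18.3, 19.1, 18.5 and 18.7 FPKM with vehicle. It had 19.5, 17.7, 18.7 and 17.9 FPKM with Mic-628, a log2 fold change of -0.02. Ddit4, another mTORC1 inhibitor gene (-0.01), Vldlr, a lipoprotein receptor gene (-0.04), and Stc2, a secreted glycoprotein gene (0.07), were not called.

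Across all 41 genes 32 had a log2 fold change above 0, and the median was 0.04. Over all tested rows 48.4% were above 0 and the median was -0.0040. Within batches 1 to 4 the median difference of the 41 genes was 0.03, 0.02, 0.07 and 0.03 on the log2 scale. Single libraries also lay above or below their own group for many of the genes at once. In vehicle libraries 1 to 4, 19, 11, 21 and 33 of the 41 genes were above their group mean, and in Mic-628 libraries 1 to 4 it was 20, 13, 32 and 26. The median deviations from the group mean ran from -0.03 to 0.02 over the 8 libraries. The genes with the element in their promoter had a median log2 fold change of 0.03 (12 genes, 1 of them called) and those without it also 0.03 (20 genes, 1 of them called). The rest of the 41 genes, with Rars1, Cars1, Hars1 and Lars1 among them, had no matched window and are in neither set.

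**Figure D4:**
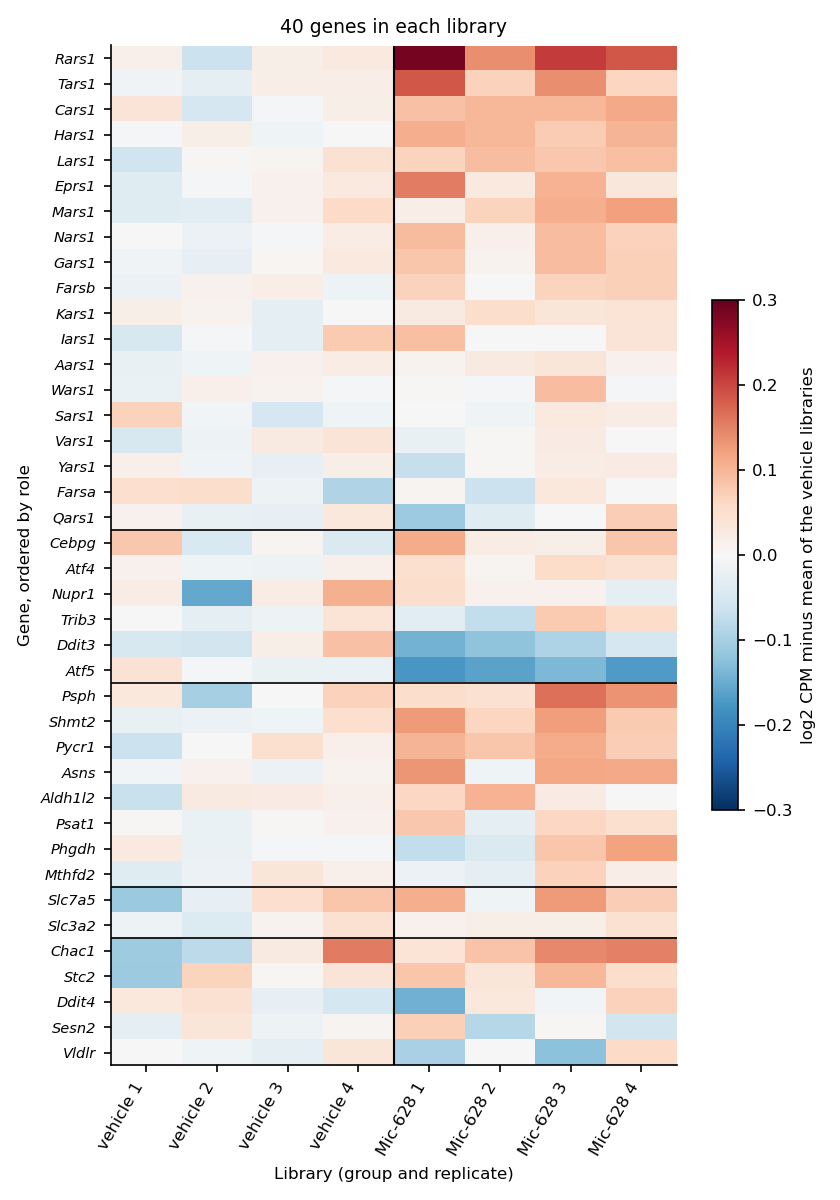
Log2 CPM of 40 genes (all but the weakly expressed Fgf21) in each library, relative to the mean of the 4 vehicle libraries of that gene; rows are grouped by role and sorted by the Mic-628 mean. Rars1 is high and Atf5 low in all 4 Mic-628 libraries, and 9 of the 41 genes, Rars1 and Tars1 among them, were higher in every Mic-628 library than in every vehicle library, against 5.63% of all tested rows.

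The wider pathway was taken from 6 further lists of 72 genes, chosen for their role with earlier results of these data known. The counts of called genes in these lists are therefore a description. Of 71 that could be tested, 5 rose, 1 fell and 65 were not called, against 2.13% higher and 2.25% lower over all tested rows. The counts for the single lists below are read against the same shares. Among the 17 mitochondrial synthetases, which charge tRNAs inside the organelle, 0 changed by edgeR at the threshold. An unadjusted p under 0.05 was found for 1 of the 17, against 2905 of 17128 tested rows. Rars2 had the smallest p of the 17 (log2 fold change 0.13, edgeR adjusted p = 0.275).

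The machinery upstream of ATF4 held 2 rises among 16 genes, Eif2s1 and Eif2s2, which encode subunits of eIF2. Eif2s3x, which encodes a further eIF2 subunit and is named after its value was seen, was not called (log2 fold change 0.02, edgeR adjusted p = 0.780). Eif2s1, which encodes the subunit that the stress kinases phosphorylate, went from 43.6 ± 1.86 to 47.9 ± 1.41 FPKM (SD, n = 4 each). The rise was 0.14 on the log2 scale (edgeR adjusted p = 0.0247). Eif2s1 was called in 12 of 23 alternatives, and not without vehicle library 2, 3 or 4 or Mic-628 library 1 or 4 (edgeR adjusted p from 0.0548 to 0.117), nor by DESeq2 with the block (0.0924). Eif2s2 went from 125 ± 1.29 to 135.5 ± 5.84 FPKM (SD, n = 4 each; log2 fold change 0.12; edgeR adjusted p = 0.0421), and it was called in 9 of 23, being lost without vehicle library 2, 3 or 4 or Mic-628 library 1, 3 or 4 (edgeR adjusted p from 0.0520 to 0.153). With the block Eif2s2 was not called by edgeR (0.0585) or DESeq2 (0.148). Next by p stood Eif2b3 (log2 fold change 0.11, edgeR adjusted p = 0.147) and Eif2b2 (0.10, 0.158), which encode subunits of eIF2B and were not called. The other Eif2b genes were not called either. The 4 kinase genes and the phosphatase subunit genes Ppp1r15a and Ppp1r15b were not called, with Ppp1r15a, itself an ATF4 target and named after its value was seen, at 0.01.

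Of 11 other ATF4 targets tested, Atf3 rose, Mthfd1l fell and 9 were not called. Atf3, a stress-induced repressor gene that many other signals also raise, had 19.5, 17.4, 19.4 and 21.0 FPKM with vehicle and 25.1, 25.7, 25.5 and 29.0 FPKM with Mic-628. The groups were well apart (log2 fold change 0.45, SE 0.053; edgeR adjusted p = 3.86e-06). Mthfd1l, a mitochondrial enzyme gene of the one-carbon pathway, went from 35.25 ± 2.06 to 31.3 ± 1.14 FPKM (SD, n = 4 each), which is -0.17 on the log2 scale (edgeR adjusted p = 0.00906). It was called in 17 of 23 alternatives. By edgeR it was not called without vehicle library 2 (adjusted p = 0.0627), Mic-628 library 3 (0.0565), batch 2 (0.0588) or batch 3 (0.08495). Limma-trend on log2 FPKM did not call it either (adjusted p = 0.1106 and 0.1115). Cebpb (-0.17; 0.0792) and Bcat1 (0.04; 0.520) were not called.

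Of 10 further amino acid transporter genes, 2 rose and 8 were not called. Slc1a5, which encodes the glutamine and neutral amino acid transporter ASCT2, had 76.0, 74.5, 78.7 and 80.5 FPKM with vehicle. With Mic-628 it had 105, 104, 109 and 104 FPKM, far above the vehicle range. On the log2 scale it rose by 0.45 (SE 0.032; edgeR adjusted p = 6.61e-10), a 1.36-fold rise found in 23 of 23 alternatives. The log2 ratio of Slc1a5 to Slc7a5, chosen after the values were seen, was 0.37 higher with Mic-628, likewise a description. Slc7a6 rose by 0.15 (edgeR adjusted p = 0.0222). It was called in 13 of 23 alternatives, and not without vehicle library 2 or 3 or Mic-628 library 1, 3 or 4 (edgeR adjusted p from 0.0514 to 0.105), nor by DESeq2 with the block (0.272). Next by p stood Slc6a9 (log2 fold change 0.08, edgeR adjusted p = 0.301) and Slc43a1 (0.12, 0.547), neither called. Slc7a11 and Slc38a2 are named here after their values were seen. Slc7a11, the cystine transporter gene and a common readout of ATF4, differed by 0.00, and Slc38a2, the gene of a glutamine transporter raised by amino acid shortage, -0.03.

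**Figure D5:**
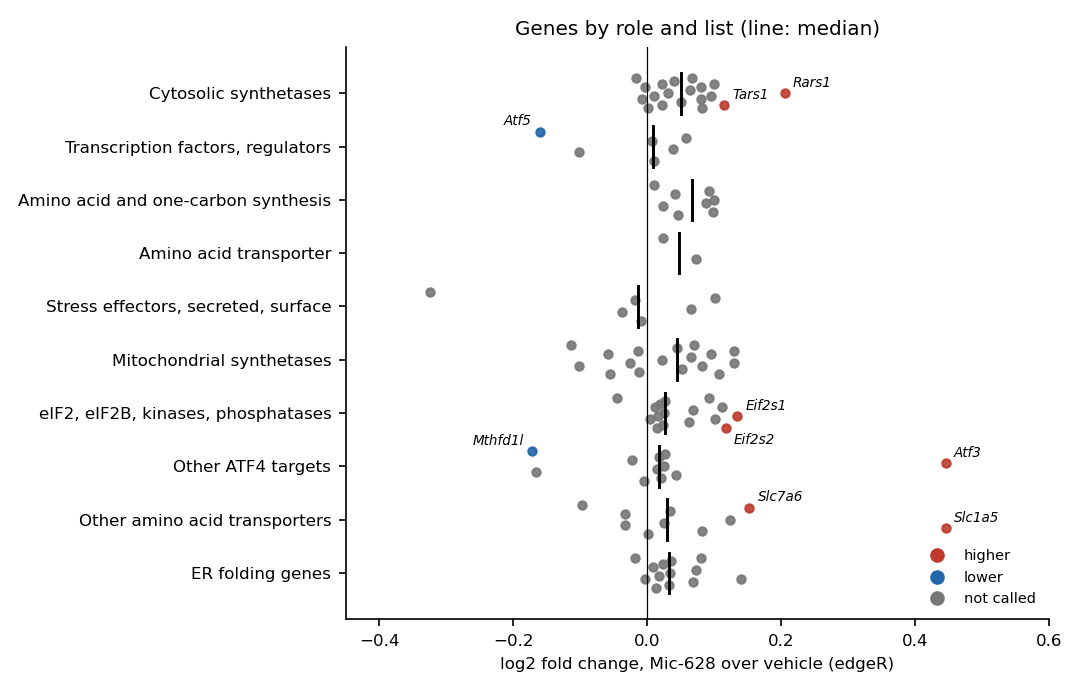
Log2 fold change of every tested gene in the 5 roles and 5 of the 6 further lists; coloured points passed an adjusted p of 0.05 and are named, and the line marks each list's median. All medians lie between -0.0133 and 0.0674, and Atf3 and Slc1a5, both at 0.45, stand apart from their lists.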

How the data were processed

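Per the labels' protocols, total RNA was extracted with Trizol, and poly(A) libraries were made with a stranded kit and read as paired ends of 101 bp. The tools named, per the submitters' processing notes, are HOMER 4.11, STAR 2.7.10a and bcl2fastq, and the build is GRCm39 (mm39); their roles are not given. The authors deposited exon read counts per canonical transcript, which come in steps of 0.5 (14.5% of values not whole) and are treated as estimated counts, and FPKM values for the same rows. FPKM recomputed from counts, exon length and the header total differed from the deposited FPKM by at most 5e-04. Whether counting used strand is not given in the sources used here, so reads of overlapping opposite genes may be shared.

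Counts were rounded, and the main test was that of edgeR 4.0.16 under R 4.3.3 (filterByExpr with a minimum count of 10, TMM, quasi-likelihood F test without a block, Benjamini-Hochberg over 17128 rows, called at an adjusted p under 0.05). SEs were taken as the absolute log2 fold change divided by the square root of F, and its 95% interval uses the fit's degrees of freedom. Log2 CPM used a prior count of 0.5. The test was tested on simulated data. An exact permutation test was also run on the ratios within libraries. Its p-values are left out, because the ratios were chosen with earlier results of these data known.

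The genes, lists and ratios were chosen with earlier results of these data known. By rule, values in every library are given for called members and for chosen key genes, and up to 4 genes of smallest p for each further list. Equal numbers pair a vehicle and a Mic-628 library, since batch is stated per the labels. The deviations of same-numbered libraries correlated at -0.0925, 0.0744, -0.0213 and -0.0949 over 10292 genes (other pairs -0.117 to 0.141). Replicates differed by more than counting noise (chi-square per gene 1.73 to 5.79). Alternatives were other scalings and filters, DESeq2 1.42.0, limma 3.58.1 (voom, and trend on log2 FPKM with a pseudocount of 1 or 0.1, restricted to mean FPKM of 0.5 or more), the batch block, and leaving out each library or batch. Promoter sequences are from RefSeq (GRCm38.p6), matched by the RefSeq accession in the table, symbol or synonym. The result of 1 further list is not reported here.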

Additional observations from a re-analysis of the deposited data

Results flagged for a closer look

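In 6 of the 82 sets of 4 libraries (41 genes in 2 groups), 1 library lay far from the other 3 by the gap between it and its nearest neighbour relative to the whole range. Chance flags about 1 in 20 such sets. The values are TMM-scaled CPM. Asns had 477.4 CPM in Mic-628 library 2 and 522 to 528 CPM in the other 3, and it was called without that library (log2 fold change 0.12; edgeR adjusted p = 0.0393). Farsb was also low in Mic-628 library 2, at 97.1 CPM against 102 CPM in each of the others. Rars1 was low in vehicle library 2, at 244 CPM against 258 to 260 CPM, and its rise without that library was 0.18 on the log2 scale (edgeR adjusted p = 0.00531). Aldh1l2, an enzyme gene of mitochondrial folate metabolism, had 479 CPM in vehicle library 1 and 507 to 512 CPM in the others. Wars1 was high in Mic-628 library 3, at 282 CPM against 263 to 265 CPM. Shmt2 was high in vehicle library 4, at 352 CPM against 334 to 337 CPM, and was called without that library (log2 fold change 0.12; edgeR adjusted p = 0.0431).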

How the results depend on the processing

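Rars1 and Atf5 kept their direction and their call in all 23 alternatives, with log2 fold changes of 0.18 to 0.23 and -0.18 to -0.14. Tars1 kept its direction in all 23 and was called in 11. Of the 38 genes not called, 33 were called in 0 alternatives, and Cars1, Ddit3, Asns, Shmt2 and Chac1 in 1 to 3 each. Among the 38, 13 changed sign in at least 1 alternative. The count of these genes that rose was 2. It was 3 with edgeR scaled on library size alone and with DESeq2 without the block, both adding Shmt2, and it was 1 by limma-trend on log2 FPKM with a pseudocount of 1 or 0.1, with the batch block in edgeR or DESeq2, and at an adjusted p under 0.01. Among the synthetases alone the count was also 1 in each of these. Leaving out a library or batch gave 1 to 3 risers, 1 to 2 fallers, 1 to 3 rising synthetases and 0 falling ones. Over all rows the 749 calls became 277 and 273 by limma-trend, 253 with the block in DESeq2, 330 at an adjusted p under 0.01, and 292 to 802 on leaving out a library or batch, with 426 without vehicle library 2, 438 without Mic-628 library 3, 331 without batch 2 and 292 without batch 3. The second faller appeared without vehicle library 1 (Ddit3). With the block in edgeR they were 624, and apart from Tars1 and Eif2s2 the block changed no call of a gene named above in edgeR. The cause of these differences was not tested. The median log2 fold change of all rows was -0.0040 in the main fit and -0.0083 to 0.0022 under the other edgeR scalings. The median of the 41 genes ran from 0.03 to 0.05 over all alternatives. Fgf21 had the fewest counts, at 24.5 to 60, and the widest interval.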

Other observations

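The endoplasmic reticulum chaperone genes, which the ATF6 and XBP1 arms of the unfolded protein response raise beside the ATF4 arm, were a further list. Of 13 tested, 0 were called by edgeR, and 4 had an unadjusted p under 0.05, against 2905 of 17128 tested rows. Hspa5, which encodes the chaperone BiP, had a mean of 1504 ± 30.6 FPKM with vehicle and 1581 ± 42.2 FPKM with Mic-628 (SD, n = 4 each), without overlap between groups and with a log2 fold change of 0.07 (edgeR adjusted p = 0.220). Dnajb9, a target of XBP1, had 0.14 (0.0929), Dnajb11 0.08 (0.167) and Manf 0.07 (0.283). In 3 of the 13, Hspa5, Dnajb9 and Dnajb11, every Mic-628 library lay above every vehicle library, against 5.63% of all tested rows. The median of the list was 0.03, against -0.0040 over all rows.

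Several of the 41 genes share bases with rows on the opposite strand. Psph overlaps Cct6a by 452 bases, and Cct6a has the more counts (means of 1538 for Psph and 8049 for Cct6a). The log2 fold change of Cct6a was 0.08 and it was not called (edgeR adjusted p = 0.162). Mars1 and Ddit3 overlap by 68 bases at their ends, and Ddit3 also overlaps the predicted gene Gm4189, a row with 3069 counts on average against 10640 for Ddit3. The log2 fold change of Gm4189 was -0.08 and it was not called (edgeR adjusted p = 0.342). Sars1 overlaps the predicted gene Gm56809 by 949 bases (mean counts 11630 and 2073, log2 fold change of Gm56809 0.06, adjusted p = 0.431). Whether reads of such rows were counted on both was not tested.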
